A study of Mus musculus with 8 samples.

Results

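The genes described here are 39 enzymes, transporters and regulatory subunits of liver glucose metabolism, chosen by symbol from a deposited table of 11784 genes, and all 39 are listed in it. They fall into 7 branches: glycolysis with 12 genes, gluconeogenesis and glucose export with 7, pyruvate dehydrogenase with 3, glycogen with 6, fructose and polyol metabolism with 2, the pentose phosphate pathway with 7, and NADPH and pentose side reactions with 2. The 8 livers were those of male mice of the strain C57BL/6J, 4 on the Control diet and 4 on the Low AA diet. Both were amino acid-defined diets, and in the Low AA diet part of the calories from amino acids was replaced by carbohydrate at a similar share of fat. The diets were changed at 9 weeks of age, and livers were collected after about 4 months and an overnight fast of about 16 hours, so all 8 mice were fasted, and the age in the labels is the age at the diet change. Poly(A) RNA was sequenced, and the values are scaled and rounded read counts per gene and mouse, not raw reads. The mice were group housed, and the sources used here do not say which mice shared a cage. P-values therefore measure only the spread between these mice.

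Glycolysis breaks glucose down to pyruvate. Gluconeogenesis runs the path backward through a few enzymes of its own and ends with the release of free glucose by glucose-6-phosphatase, which the liver, unlike most tissues, expresses. During a fast the liver supplies glucose first from glycogen and later from lactate, glycerol and amino acids, while after a carbohydrate meal the same cells store glucose and turn fructose and glucose into fat. The pentose phosphate pathway branches off at glucose-6-phosphate and yields NADPH and pentoses.

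All 8 hepatocyte markers examined were listed in every mouse, and their summed values were 2211560 to 2604711 on the Control diet and 2462503 to 2697750 on the Low AA diet. Column totals, 27876664 to 30799385, include the authors' scaling and stand only roughly for sequencing depth. The 39 genes took 1.52% to 1.71% of the total in Control mice and 1.55% to 1.80% in Low AA mice. One liver stood apart in a marker of another tissue: Cela1, a pancreatic acinar gene and the 1 of 9 acinar markers that is listed, was 36587 in Control mouse F2212 and 130 to 288 in the other 7 mice. Red blood cell markers, 5 of 7 listed, summed to 4952 to 16567 on the Control diet, highest in F2212, against 5476 to 7974 on the Low AA diet. The sums overlapped between the diets for macrophage markers, 4998 to 7242 against 5417 to 7376, and for stellate markers, 7509 to 9777 against 7716 to 9666. Endothelial markers gave 4858 to 6945 against 5946 to 6600, and bile duct markers 1124 to 2265 against 826 to 1316. Single markers differed more than these sums. All 6 listed macrophage markers had positive log2 fold changes, with an unadjusted p of 0.0473 in limma for Emr1. Among stellate markers Col1a1 had a value of -1.07 with no overlap between diets, while the others ran from -0.48 in Col3a1 to 0.16 in Reln. Bile duct markers had -1.05 in Sox9, -0.87 in Krt19, -0.37 in Spp1 and -0.20 in Epcam. Of the red blood cell markers, Alas2 had -0.49 with no overlap, Hba-a1 -0.72, Hba-a2 -0.49 and Hbb-b1 -0.96. Hbb-b2 had the opposite sign, 2.31, with a value of 0 in Control mouse F129. None of these markers was called, and the smallest adjusted p in limma was 0.148, in Col1a1. Their part in the values of the glucose genes was not tested. None of the 4 adipocyte and 4 muscle markers was listed.

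None of the 39 genes differed between the diets at an adjusted p under 0.05 in limma, against 47 of all 11784 genes, or 0.399%, split into 0.102% with higher values in Low AA mice and 0.297% with lower ones. At an adjusted p under 0.1 there was 1, Cryl1, against 1.12% of all genes. At an unadjusted p under 0.05 there were 9 of 39, or 23.1%, against 11.8% of all genes. Of these 9, Gpi1, Aldoa, Pgk1, G6pc, Dlat, Khk, G6pdx and Tkt were higher on the Low AA diet, a direction that 5.13% of all genes had at that threshold, and Cryl1 was lower, as were 6.7% of all genes. In 4 of 39, or 10.3%, the values of the diets did not overlap, against 6.81% of all genes: Gpi1, Dlat and G6pdx were above the Control range in every Low AA mouse, as were 3.26% of all genes, and Cryl1 was below it, as were 3.55%. The genes were chosen with earlier results of these data known, so these shares are descriptions. In whole liver, a lower value from fewer cells of a type and one from less RNA per cell cannot be told apart.

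The typical difference was small. The log2 fold change, Low AA minus Control on the scale of log2(value + 1), was positive in 25 of 39 genes, or 64.1%, and in 50.5% of all genes. Its median was 0.08 over the 39 genes and 0.00 over all genes, and it ran from -0.68 in Cryl1 to 0.71 in G6pc. In 30 of the 39, or 76.9%, the 95% interval of the difference lay within 1.5-fold in either direction, as it did in 64.6% of all genes, and in 36 it lay within 2-fold.

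**Figure D1:**
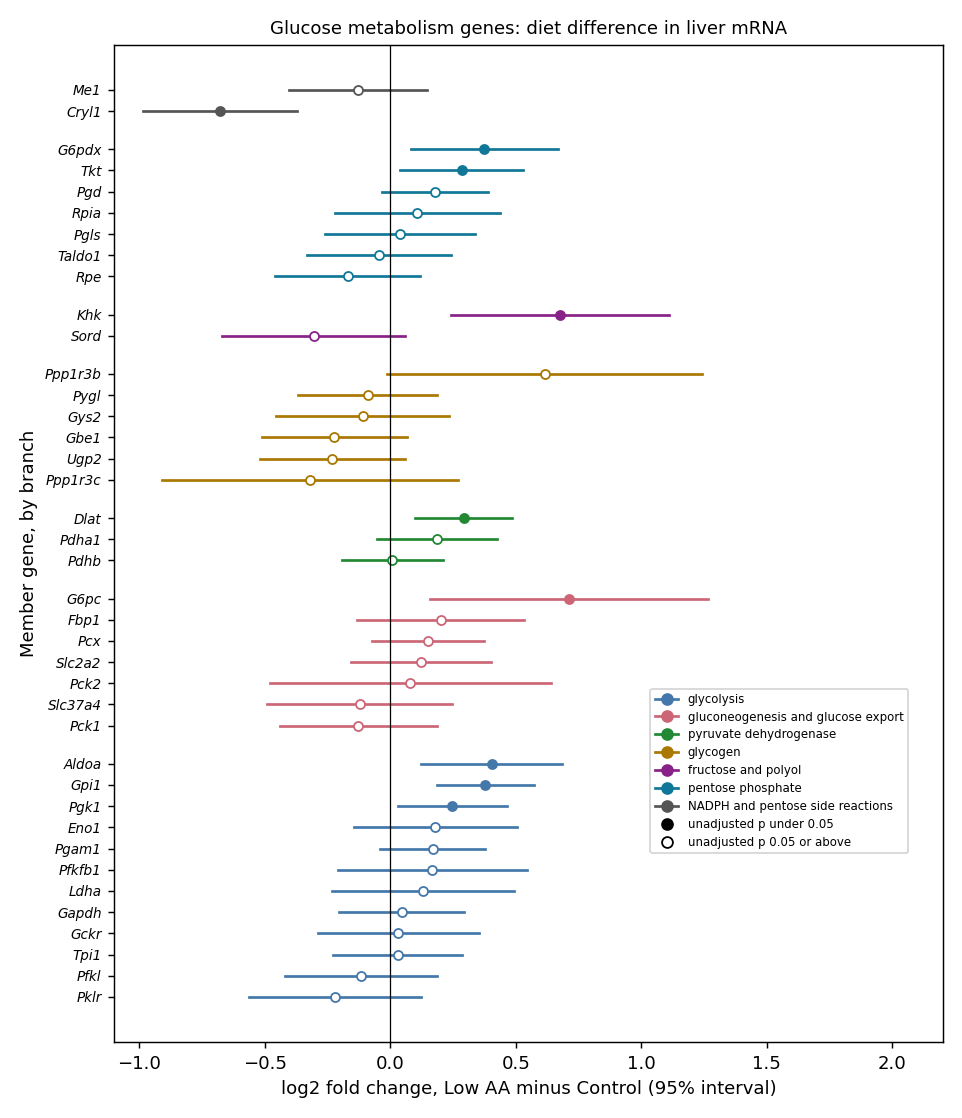
Each point is the log2 fold change of 1 gene, Low AA minus Control, on the x axis, with a bar for its 95% interval from limma, and the genes on the y axis are grouped and coloured by branch. Filled points mark the 9 genes with an unadjusted p under 0.05, and 8 of them lie to the right of 0 and Cryl1 to the left.

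By branch, the median log2 fold change was 0.15 in glycolysis, with 10 of 12 genes positive, and 0.12 in gluconeogenesis and glucose export, with 5 of 7 positive. It was 0.19 in pyruvate dehydrogenase, with 3 of 3 positive, and 0.11 in the pentose phosphate pathway, with 5 of 7 positive. Glycogen genes had a negative median, -0.17, with 1 of 6 positive. For the 2-gene branches the medians were 0.18 in fructose and polyol metabolism, from opposite values of Khk and Sord, and -0.40 in Me1 and Cryl1.

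Within glycolysis, the mean deviation of the 12 genes from their 8-mouse log2 mean was -0.04, -0.03, -0.14 and -0.03 in Control mice F129, F2212, F7111 and F2110, and 0.00, 0.00, 0.11 and 0.13 in Low AA mice H1126, H828, H817 and H1315. All values below are given in this order of mice. Every Low AA mouse was thus above every Control mouse in this mean, but by little in H1126 and H828. This was not particular to glycolysis. The pyruvate dehydrogenase mean was -0.13 to -0.02 in Control and 0.04 to 0.11 in Low AA mice. That of Me1 and Cryl1 separated the other way, and the means of the other branches overlapped. The mean of all 39 genes overlapped as well, at -0.004 in F2212 and -0.008 in H817. Over all 39 genes, Control mouse F7111 had the lowest of the 8 values in 12 genes, and F2212 had the highest in 11.

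**Figure D2:**
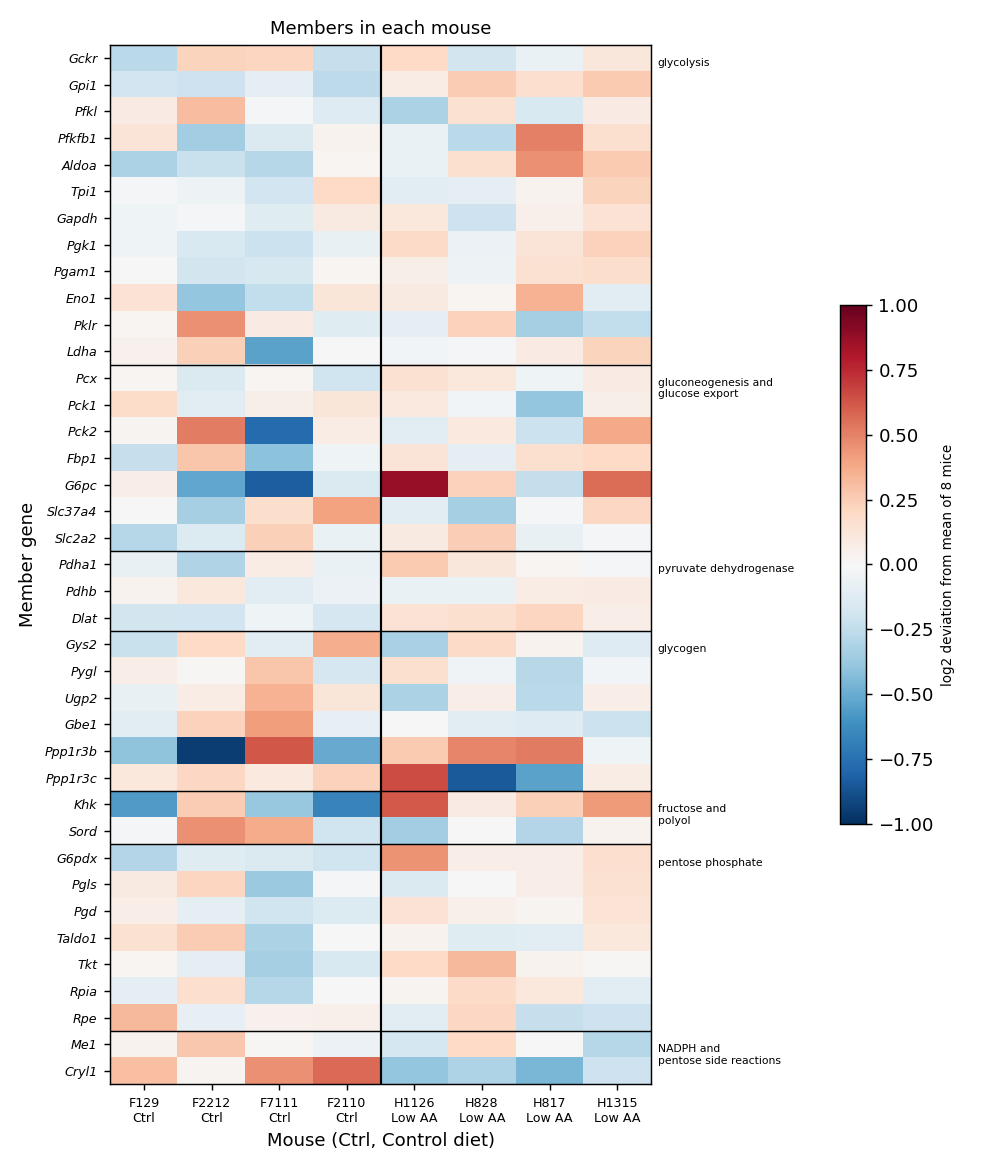
Colour gives the deviation of each gene, in rows grouped by branch, from its own mean over the 8 mice on the log2 scale, with the mice in columns, 4 Control on the left of the line and 4 Low AA on the right. Blue cells gather in Control mouse F7111, which had the lowest value in 12 genes, and the row of Cryl1 turns from red to blue at the line. How often F7111 was lowest over all genes was not counted.

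Glucose is trapped and rearranged at the head of glycolysis. Gpi1, which interconverts glucose-6-phosphate and fructose-6-phosphate, was 4452, 4396, 4755 and 4238 in Control mice and 5358, 6059, 5693 and 6085 in Low AA mice. The lowest Low AA mouse lay above the highest Control mouse. The mean was 4460 ± 216 in Control and 5799 ± 344 in Low AA mice (SD, n = 4), which gave a log2 fold change of 0.38 ± 0.09 (SE, as after ± in all fold changes below) and an adjusted p of 0.113 in limma. Gckr, a regulatory protein at the entry of glucose, was 1702, 2393, 2377 and 1745 in Control and 2349, 1808, 1954 and 2221 in Low AA mice, with ranges that overlapped throughout and a log2 fold change of 0.03 ± 0.14. Pfkl, the liver subunit of phosphofructokinase at the committed step, was 707, 830, 659 and 611 in Control mice and 537, 742, 602 and 710 in Low AA mice. These ranges overlapped as well, and the log2 fold change was -0.12, with a 95% interval from -0.42 to 0.19.

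Aldoa, an aldolase that splits fructose-1,6-bisphosphate, had the largest difference in the branch. Its values were 3408, 3629, 3480 and 4299 in Control mice and 4044, 4737, 5825 and 5079 in Low AA mice, so only Low AA mouse H1126 fell inside the Control range. The log2 fold change was 0.40 ± 0.13, with an adjusted p of 0.229. In GENCODE, used here only for lengths and positions, 2 protein-coding genes carry this symbol. The gene annotation behind the authors' counts is not given in the sources used here. Whether the reads assigned to Aldoa are affected is therefore not known. Pgk1, the first ATP-yielding enzyme of the pathway, was 10647, 9880, 9453 and 10433 in Control and 12584, 10535, 12030 and 12915 in Low AA mice. Here too 1 Low AA mouse, H828, lay inside the Control range, and the log2 fold change was 0.25 ± 0.10 with an adjusted p of 0.348.

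Pklr, the liver pyruvate kinase that closes glycolysis, was 1308, 1770, 1365 and 1182 in Control mice and 1201, 1513, 1024 and 1087 in Low AA mice. The ranges overlapped, and the log2 fold change was -0.22, with an interval from -0.57 to 0.12 and an adjusted p of 0.65. Pklr and Pfkl were the only genes of the 12 with a negative value. The other 6, Pfkfb1, Tpi1, Gapdh, Pgam1, Eno1 and Ldha, had log2 fold changes between 0.03 and 0.18 and overlapped between diets. Several of them, Gapdh among them, have many processed pseudogenes, with which reads can be shared.

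Gluconeogenesis is led by phosphoenolpyruvate carboxykinase. Pck1, its cytosolic form, was 156026, 127330, 143323 and 149765 in Control mice and 146791, 135110, 105397 and 143438 in Low AA mice. The lowest value was that of Low AA mouse H817, the other 3 lay inside the Control range, and the log2 fold change was -0.13, with an interval from -0.44 to 0.19. Pck2, the mitochondrial form, was 138, 194, 79 and 143 in Control and 126, 145, 117 and 177 in Low AA mice, with both the highest and the lowest value in Control. Per length, Pck1 exceeded Pck2 by 839 to 2318 times in the Control mice.

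Fbp1, the bisphosphatase that opposes phosphofructokinase, was 29820, 42363, 26312 and 33953 in Control mice and 38239, 32856, 39064 and 40039 in Low AA mice. All 4 Low AA values lay inside the wider Control range, and the log2 fold change was 0.20 ± 0.15. Slc2a2, the glucose transporter of the hepatocyte membrane, was 5130, 5692, 7359 and 5969 in Control and 6638, 7422, 5914 and 6174 in Low AA mice, again with overlap and a log2 fold change of 0.12 ± 0.13. Pcx, which makes oxaloacetate from pyruvate, had a log2 fold change of 0.15 ± 0.10, and Slc37a4, which carries glucose-6-phosphate into the endoplasmic reticulum, one of -0.12 ± 0.17.

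G6pc, the catalytic subunit of glucose-6-phosphatase, had the largest difference of all 39 genes. It was 26518, 17713, 14286 and 22882 in Control mice and 46361, 29766, 21527 and 37218 in Low AA mice. Low AA mice H1126, H828 and H1315 lay above every Control mouse, and H817 lay below Control mice F129 and F2110. The means were 20350 ± 5422 and 33718 ± 10588 (SD, n = 4 each), a 1.64-fold difference with a 95% interval from 1.12 to 2.41, and the adjusted p was 0.282 in limma. G6pc therefore had the widest difference but also 1 of the wider spreads, and its log2 fold change stayed between 0.54 and 0.91 with each mouse left out in turn.

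The pyruvate dehydrogenase complex joins glycolysis to the citric acid cycle. Dlat, its acetyltransferase core, was 1069, 1059, 1177 and 1078 in Control mice and 1340, 1351, 1410 and 1266 in Low AA mice. The groups were tight and did not overlap, the log2 fold change was 0.29 ± 0.09, and the adjusted p was 0.198. The decarboxylase subunits Pdha1 and Pdhb had log2 fold changes of 0.19 ± 0.11 and 0.01 ± 0.09, with overlapping ranges.

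The upstream sequence of the genes whose values did not overlap is shown for Gpi1, Dlat and Cryl1, as the 200 bases before the first annotated start, from RefSeq on GRCm38.p6. The stretches are chr7:34230337-34230536, chr9:50659781-50659980 and chr14:57398530-57398729, all on the minus strand. None of the 6 motifs searched was found in them, so no base is in capitals.
Gpi1: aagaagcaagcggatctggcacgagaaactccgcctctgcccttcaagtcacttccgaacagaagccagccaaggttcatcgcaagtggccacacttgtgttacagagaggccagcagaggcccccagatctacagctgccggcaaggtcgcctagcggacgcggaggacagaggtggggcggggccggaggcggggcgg
Dlat: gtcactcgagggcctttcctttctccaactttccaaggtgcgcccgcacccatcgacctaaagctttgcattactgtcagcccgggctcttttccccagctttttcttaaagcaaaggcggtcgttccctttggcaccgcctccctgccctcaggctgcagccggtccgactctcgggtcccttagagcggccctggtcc
Cryl1: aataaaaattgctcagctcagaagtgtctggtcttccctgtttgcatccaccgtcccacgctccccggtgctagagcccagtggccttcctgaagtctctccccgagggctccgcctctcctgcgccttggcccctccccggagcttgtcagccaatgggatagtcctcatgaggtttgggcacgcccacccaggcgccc

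Most glycogen genes had negative values, as Me1 and Cryl1 did. Gys2, the liver glycogen synthase, was 11292, 15140, 12217 and 17001 in Control and 10557, 15080, 13560 and 12107 in Low AA mice. Pygl, the liver phosphorylase that releases glucose from glycogen, was 4909, 4727, 5706 and 4180 in Control and 5264, 4575, 3871 and 4619 in Low AA mice. Both overlapped between diets, with log2 fold changes of -0.11 ± 0.16 and -0.09 ± 0.13. Ugp2, which makes UDP-glucose, and Gbe1, the branching enzyme, had values of -0.23 and -0.22, and neither interval excluded 0.

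The regulatory subunits that target protein phosphatase 1 to glycogen varied most between mice. Ppp1r3b, the liver form, was 2619, 1793, 5305 and 2436 in Control mice and 4151, 4836, 4964 and 3346 in Low AA mice. Control mouse F7111 was the highest of all 8, while the other 3 Control mice lay below every Low AA mouse. The log2 fold change was 0.61 ± 0.28, with an interval from -0.01 to 1.24 and an adjusted p of 0.435. Ppp1r3c was 1033, 1107 and 1030 in Control mice F129, F2212 and F7111 and slightly higher in F2110, with a mean of 1074 ± 49.7 (SD, n = 4). It was 1513, 537, 664 and 1010 in Low AA mice. The Control mice were close together and the Low AA mice lay on both sides of them, with SDs on the log2 scale of 0.07 and 0.66.

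**Figure D3:**
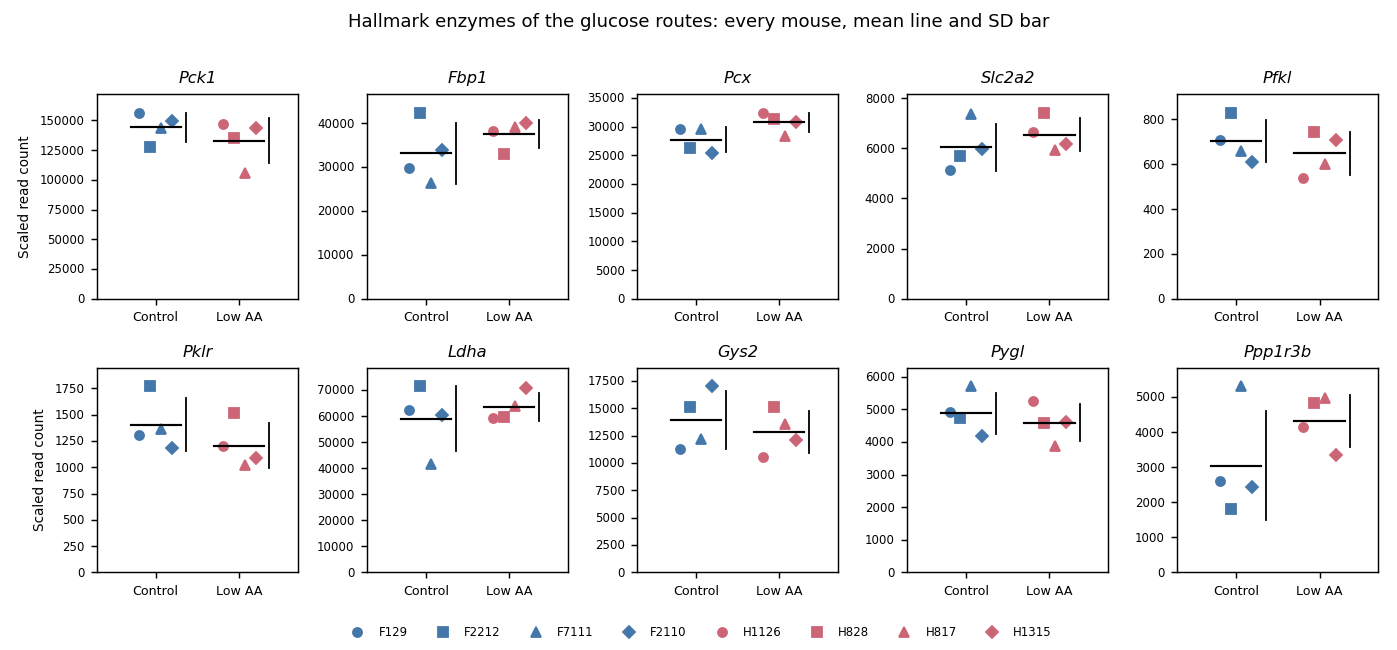
Each panel plots the scaled read count of 1 gene on a linear axis from 0, with 1 symbol per mouse, a line at the mean of 4 mice and a bar of 1 SD on each side. The diets overlap in every panel, and in the panel of Ppp1r3b the highest point, 5305, is Control mouse F7111.

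Fructose enters through ketohexokinase. Khk, which phosphorylates fructose, lies at chr5:30921431-30931248 on the plus strand (GRCm38) and was 3841, 6792, 4386 and 3588 in Control mice and 8700, 6010, 6706 and 7631 in Low AA mice. Only Control mouse F2212 lay inside the Low AA range. The means were 4652 ± 1465 and 7262 ± 1166 (SD, n = 4 each), a 1.60-fold difference with a 95% interval from 1.18 to 2.16, and the adjusted p was 0.191 in limma. With each mouse left out in turn, the log2 fold change of 0.68 ran from 0.57, without F2110, to 0.87, without F2212, and the adjusted p from 0.0316 to 0.403. Of these 8 fits, only the one without F2212 was under 0.05. F2212 is the liver with the high Cela1 value of 36587, and the part of that in the Khk value was not tested. Sord, the sorbitol dehydrogenase that makes fructose from sorbitol, had the opposite sign, a log2 fold change of -0.31 ± 0.16 with overlap and an adjusted p of 0.521.

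The step after Khk was read from the wider set of genes. Dak, the older symbol of Tkfc, is the triokinase that phosphorylates glyceraldehyde from fructose. It was 4388, 5762, 5592 and 5327 in Control mice and 3684, 3547, 2865 and 3201 in Low AA mice. The diets did not overlap, and the log2 fold change was -0.66 ± 0.12 with an adjusted p of 0.051. With each mouse left out, the log2 fold change ran from -0.75, without F129, to -0.59, without H817, and the adjusted p from 0.044 to 0.176, under 0.05 only without F129. The per-length ratio of Khk to Dak, a comparison chosen after the values were seen and so given with no test, was 1.53, 2.06, 1.37 and 1.17 in Control and 4.12, 2.96, 4.08 and 4.16 in Low AA mice. A ratio within a mouse does not change if all values of that mouse were scaled by the same factor. Whether they were is not known, as the scaling method is not given.

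**Figure D4:**
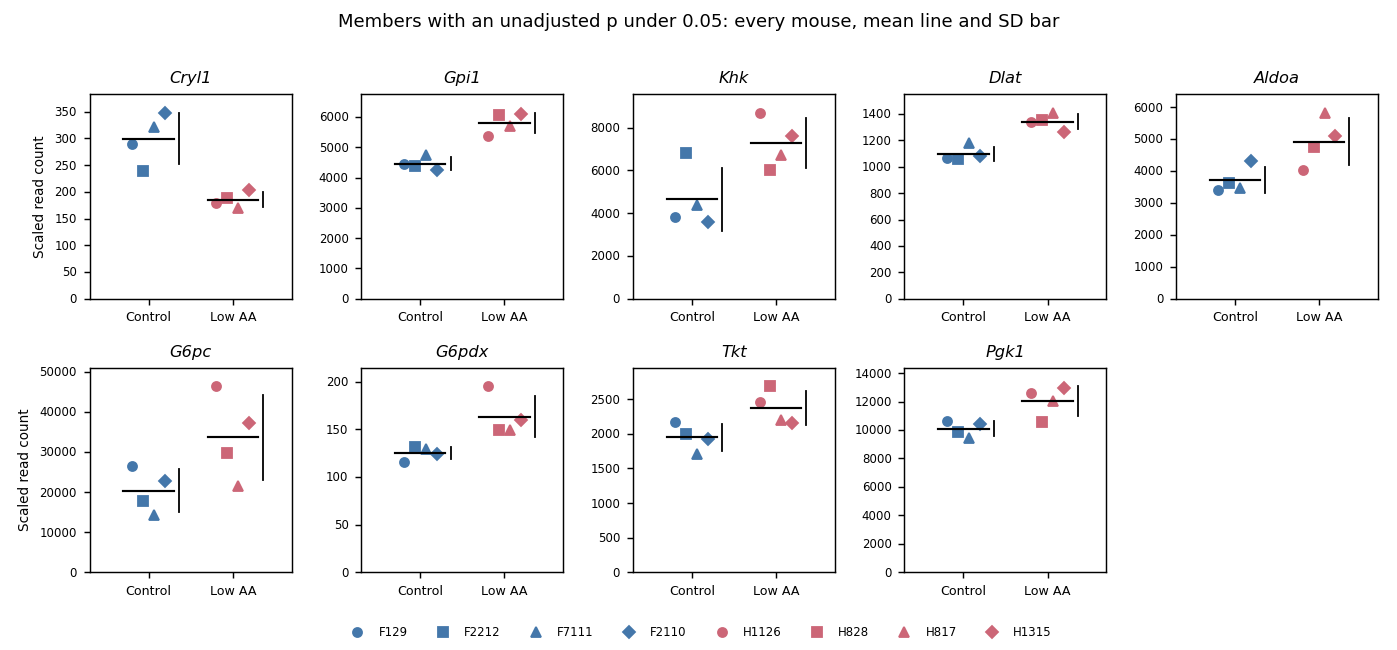
The 9 genes with an unadjusted p under 0.05 are plotted as scaled read counts on linear axes from 0, with 1 symbol per mouse, a line at the mean and a bar of 1 SD on each side, in order of p. Gpi1, Dlat, G6pdx and Cryl1 show no overlap between diets, and in Khk only the Control value of 6792 reaches the Low AA points.

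The oxidative arm of the pentose phosphate pathway begins with glucose-6-phosphate dehydrogenase. G6pdx was 116, 131 and 124 in Control mice F129, F2212 and F2110, with F7111 between the latter pair, and 195, 149, 149 and 160 in Low AA mice. Every Low AA mouse was above the Control range, most so H1126, and the log2 fold change was 0.38 ± 0.13 with an adjusted p of 0.284. Pgd, the second dehydrogenase of this arm, had a log2 fold change of 0.18 ± 0.10, and the lactonase Pgls between them one of 0.04 ± 0.14. In the non-oxidative arm, Tkt, the transketolase, was 2171, 2001, 1704 and 1927 in Control and 2460, 2686, 2196 and 2162 in Low AA mice. Only Low AA mouse H1315 fell inside the Control range, and the log2 fold change was 0.28 ± 0.11 with an adjusted p of 0.337. Taldo1, the transaldolase, and the isomerases Rpia and Rpe had values between -0.17 and 0.11 and overlapped.

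Me1, the malic enzyme that also makes cytosolic NADPH, was 4317, 5094, 4260 and 4053 in Control mice and 3739, 4851, 4239 and 3466 in Low AA mice. The ranges overlapped and the log2 fold change was -0.13 ± 0.12. Cryl1, an L-gulonate dehydrogenase of the glucuronate route to pentoses, lies at chr14:57274993-57398529 on the minus strand (GRCm38). It was 289, 239, 322 and 348 in Control mice and 179, 189, 170 and 203 in Low AA mice. The diets did not overlap, and the nearest Control mouse was F2212 at 239. The means were 300 ± 47.0 and 185 ± 14.2 (SD, n = 4 each), a ratio of 0.624 with a 95% interval from 0.505 to 0.772. This was the smallest adjusted p of the 39 genes, 0.0793 in limma. With each mouse left out in turn, the log2 fold change of -0.68 ran from -0.78 to -0.60 and the adjusted p from 0.0323 to 0.269. The 1 of these fits under 0.05 left out Control mouse F2212, in which Cela1 was high.

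Levels of different genes were compared as scaled counts per kilobase of the median GENCODE transcript length. Pck1, Ldha, Gapdh and Fbp1 were the 4 highest of the 39 in both diets, at 54157 ± 4634, 37090 ± 7858, 34345 ± 2089 and 22388 ± 4674 per kilobase in Control mice (SD, n = 4). Ldha and Gapdh differed by less than the spread between mice. Pck2 was the lowest in both diets, at 40.7 ± 13.8 in Control mice, next to G6pdx at 47.1 ± 2.52 and Rpia at 53.2 ± 7.05, and these neighbours were also within their spreads. In these fasted livers Pck1 per kilobase was 76.9 to 135 times Pklr in Control mice. G6pc moved from place 7 to place 5 in the order of means, and Khk from place 12 to place 10. In Low AA mice G6pc was 13968 ± 4386 per kilobase, next to Tpi1 at 10719 ± 1142. Khk was 5114 ± 821 there, next to Gys2 at 4827 ± 730 (SD, n = 4 each). These new neighbours were also within their spreads.

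Short stretches of 30 bases around motif matches are shown for 4 genes, from RefSeq promoter windows of GRCm38.p6 that run from 250 bases before to 50 after a start, with the match in capitals. Khk is shown for the E-box CACGTG at chr5:30921477-30921506 (plus strand), the letters bound by the carbohydrate-responsive factor ChREBP among others, 71 bases before the start. G6pc and Pck2 are shown for TGATGNAA, the letters of the amino acid response element of ATF4, read from the opposite strand, at chr11:101367567-101367596 and chr14:55540152-55540181 (plus strand). G6pdx is shown for TGACNNNGC, the letters of the antioxidant response element of NRF2, also read from the opposite strand, at chrX:74428919-74428948 (minus strand). In GENCODE, the stretches of Khk and G6pc lie just after the annotated start of the gene, and that of G6pdx lies further inside it.
Khk: gcgttccccgtCACGTGacaccgttaatct
G6pc: cctgaacatgtTTGCATCAacctactgatg
Pck2: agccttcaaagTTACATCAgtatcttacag
G6pdx: gaggcgggtcaGCTCAGTCAaagcacacgc

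Windows were found for 37 of the 39 genes, 52 windows in all, and not for Gys2 and Ppp1r3b. On either strand, the E-box was in 7.69% of the 52 and in 7.15% of all 32851 windows of the same length, in Khk, Ldha, Pcx and Ppp1r3c. TGATGNAA was in 3.85% against 3.97%, in G6pc and Pck2, and TGACGTCA, the cyclic AMP response element, in 1.92% against 1.79%, in Ldha. TGACNNNGC was in 15.4% against 12.4%, in Aldoa, Fbp1, G6pc, G6pdx, Me1, Pdhb, Pgd and Pklr. A match of it can overlap one of TGACGTCA in part but cannot begin at the same base. The forkhead letters TGTTTAC and the sterol letters TCACNCCAC were in none of the 52 windows and in 3.65% and 1.24% of all windows. The shares of the glucose genes were thus near those of all promoters, and a match is a run of letters, not a bound site.

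A wider list of 80 further genes of glucose use had 69 listed. Of these, none was called at an adjusted p under 0.05 in limma, against 0.399% of all genes. At an unadjusted p under 0.05 there were 13, or 18.8%, against 11.8% of all genes, 8 of them higher and 5 lower. In 5, or 7.25%, the diets did not overlap, a share near the 6.81% of all genes. Beside Dak these were Gpd2, Slc16a7, Ldhd and Phkb. Gpd2 is the mitochondrial glycerol-3-phosphate dehydrogenase, on a route by which glycerol can enter gluconeogenesis. It was 1042, 1272, 1851 and 1234 in Control and 2754, 2112, 2250 and 1875 in Low AA mice. Its ranges were separated by little, between Control mouse F7111 and Low AA mouse H1315. The log2 fold change was 0.75 ± 0.18 with an adjusted p of 0.117, and with each mouse left out it ran from 0.64, without F129, to 0.92, without F7111. The adjusted p then ran from 0.0371 to 0.323 and was under 0.05 only without F7111.

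Of the carriers and enzymes of lactate, none was called. Slc16a7, a monocarboxylate transporter, was 1207, 1754, 1783 and 1471 in Control and 2263, 2105, 2189 and 2092 in Low AA mice, a log2 fold change of 0.49 ± 0.13 with an adjusted p of 0.146. Slc16a1, the related transporter that was named after its values were seen, had a log2 fold change of 0.99 ± 0.24 with an adjusted p of 0.124. With each mouse left out it ran from 0.82 to 1.21 and the adjusted p from 0.044 to 0.342, under 0.05 only without Control mouse F129, whose value of 5059 was inside the Low AA range. Ldhd, the D-lactate dehydrogenase, was 2746, 3319, 2920 and 2370 in Control and 1901, 1163, 1569 and 2088 in Low AA mice, a log2 fold change of -0.78 ± 0.18 with an adjusted p of 0.11. Slc16a7 and Ldhd were without overlap, the first with higher and the second with lower values in Low AA mice. The lactate dehydrogenases Ldha and Ldhb overlapped, with log2 fold changes of 0.13 ± 0.16 and 0.15 ± 0.29 and adjusted p of 0.825 and 0.893.

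Phkb, a regulatory subunit of phosphorylase kinase, was 573, 502, 578 and 719 in Control mice and 466, 458, 431 and 434 in Low AA mice, a log2 fold change of -0.39 ± 0.12 with an adjusted p of 0.21. Pdk4, the kinase that turns off pyruvate dehydrogenase in a fast, was 2419, 670, 545 and 1265 in Control and 2889, 5599, 3039 and 1102 in Low AA mice. Its ranges overlapped, with a log2 fold change of 1.40 ± 0.53 and an adjusted p of 0.324.

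**Figure D5:**
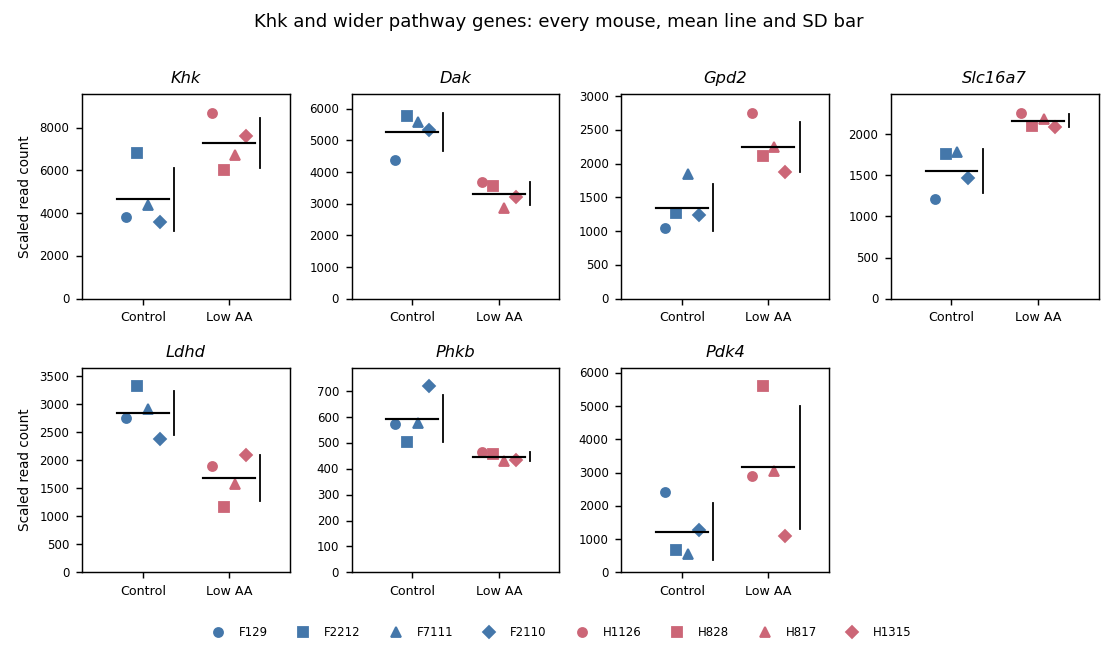
Khk and 6 genes of the wider list are plotted as scaled read counts on linear axes from 0, with 1 symbol per mouse, a line at the mean and a bar of 1 SD on each side. Dak, Gpd2, Slc16a7, Ldhd and Phkb show no overlap between diets, while Pdk4 overlaps.

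Of 40 transcription factors, hormone receptors and signalling genes that control these pathways, all were listed. None was called at an adjusted p under 0.05 in limma, against 0.399% of all genes. Only Irs1, an adaptor of the insulin receptor, had an unadjusted p under 0.05, or 2.5% of the list against 11.8% of all genes. Its log2 fold change was 0.53 ± 0.21, with an adjusted p of 0.341. None of the 40 was without overlap, against 6.81% of all genes. Mlxipl, which encodes ChREBP, was 2460 to 4025 in Control and 2752 to 3643 in Low AA mice, with a log2 fold change of -0.02 ± 0.15. Foxo1, a fasting-activated factor, had a log2 fold change of 0.20 ± 0.20 and the coactivator Ppargc1a one of 0.51 ± 0.47. Messenger levels do not measure the activity of these factors.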

How the data were processed

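Liver poly(A) RNA of 8 mice, 4 per diet, was analysed with each mouse as 1 replicate. The submitters' processing notes name bcl2fastq 1.8.2, STAR 2.5.0a, RSEM 1.2.6, edgeR 3.10.5, R 3.2.1 and the build mm10, with no role or order. The authors deposited for each gene a signal per mouse, the read count after scaling and rounding. They also deposited their own signed fold change, a score, and an FDR, a q-value, neither of which was used. The scaling method is not given in the sources used here, and raw counts could not be recovered, so count models were not used.

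The diets were compared on log2(value + 1) in R 4.3.3 with limma 3.58.1, a two-sided test moderated along a mean-variance trend. P-values were adjusted by Benjamini-Hochberg across the 11784 genes and called at an adjusted p under 0.05. Fold changes on this scale understate those of low genes. A minimum of 1 in at least 4 mice excluded 0 genes. The third-highest value of each gene was 28 or more, so low genes were already absent from the deposited table. The fit was tested on simulated data. Alternatives were pseudocounts of 0.1 and 5, no filter, the 8000 genes with the highest mean, equal column totals, median centring, no trend, robust moderation, an adjusted p under 0.1 and each mouse left out. Array weights were added after seeing the data, as were the alternatives for the counts at an unadjusted p, for branch medians and for overlap without single mice.

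The 39 genes, the wider list and the regulators were chosen with earlier results of these data known. Values in every mouse are given for genes without overlap, with an unadjusted p under 0.05, with the largest difference of a branch, and for hallmark enzymes. Of the other lists, genes that did not overlap and had an unadjusted p under 0.05, and Pdk4, Mlxipl, Foxo1 and Ppargc1a are named, while Irs1 and Slc16a1 were named after their values were seen. Other genes of the wider list, although counted, are not reported here. Lengths are from GENCODE and promoter sequences from RefSeq. Motifs were searched by their letters on both strands. Figures were drawn with matplotlib 3.10.9.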

Additional observations from a re-analysis of the deposited data

Results flagged for a closer look

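Of 98 groups of 4 mice examined, 1 had a mouse far from the other 3. Dlat, the core of pyruvate dehydrogenase, was 1177 in Control mouse F7111 and 1059 to 1078 in the other 3 Control mice, a gap of 0.832 of the whole range, just above Dixon's critical value for 4 samples. Chance flags about 1 in 20 such groups. The value lies toward the Low AA mice, and without F7111 the log2 fold change of Dlat was 0.33.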

How the results depend on the processing

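Of the 39 genes, none was called in limma with other pseudocounts, no filter, the 8000 genes with the highest mean, equal column totals, median centring, no mean-variance trend or robust moderation. Pck2, G6pdx and Rpia were not among the 8000 highest genes and so could not be called there. At an adjusted p under 0.1, 1 of the 39 was called, and 1 with array weights, in both cases Cryl1. Leaving out single mice gave 0 to 2, the 2 being Khk and Cryl1 without Control mouse F2212. Of the wider list, 1 was called at an adjusted p under 0.1, 3 with array weights, and 0 to 2 with single mice left out. Over all genes the count of 47 became 19 with the 8000 highest genes, 30 without the trend, 132 at an adjusted p under 0.1 and 161 with array weights. It was 16 to 77 with single mice left out, 77 without Control mouse F2212, 29 without F129, and 21, 19 and 16 without Low AA mice H1126, H828 and H817. The cause was not tested. With a mouse left out, 5 to 8 of the 39 did not overlap, 8 without F129 and 7 without H828, as fewer mice make a separation easier. With all mice kept it was 5 with equal column totals and 6 with median centring. The share of all genes without overlap was not counted under these settings. The changed counts are therefore not a result about the 39 genes. The median of glycolysis ran, with a mouse left out, from 0.077 to 0.18, lowest without H817, that of pyruvate dehydrogenase from 0.12 to 0.24, gluconeogenesis from 0.061 to 0.17, fructose and polyol from 0.072 to 0.33, and the pentose phosphate pathway from 0.030, without F7111, to 0.18. The last was 0.038 with the 8000 highest genes, which leave out some of its members. None changed sign. With array weights, the sign turned in Tpi1 (-0.010), Pck2 (-0.051) and Mlxipl (0.061). With single mice left out the sign turned in genes close to 0: the log2 fold change ran from -0.053 to 0.11 in Gckr, -0.16 to 0.031 in Taldo1, -0.15 to 0.091 in Mlxipl, -0.038 to 0.10 in Tpi1, -0.16 to 0.26 in Pck2, -0.028 to 0.23 in Ldha, -0.024 to 0.046 in Pdhb and -0.078 to 0.12 in Pgls. Scaling moved the median of all genes by at most 0.02.

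No paired analysis was possible because mouse codes are not shared between the diets. The edgeR and DESeq2 alternatives were not run, because raw counts could not be recovered. With 4 mice per diet, differences smaller than the spread between mice were not detectable, and some larger than that spread were not called either. Gpi1 had a log2 fold change of 0.38, log2 SDs of 0.07 in Control and 0.09 in Low AA mice, and an adjusted p of 0.113 in limma. The depth of each library is known only after scaling.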
